A study of Plecoglossus altivelis with 9 samples.

Results

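Ayu head kidney macrophages exposed to LECT2 at 5 μg/ml were compared with untreated macrophages (0 μg/ml), on the 3 arrays of each dose. By the dose in the labels, these are 6 of the 9 arrays of the study. The other 3 arrays, at 0.5 μg/ml, gave part of the estimate of the spread and are otherwise used only where stated. The 6 samples shared the species, the tissue, the medium and an incubation of 3.5 h. Ages, sex and strain of the fish, and the source and purity of the LECT2, are not given in the sources used here. The submitters describe 3 independent experiments, each on its own fish. The cells were the fraction of head kidney cells that adhered to plastic, kept in medium with calf serum and antibiotics. A culture chosen in this way can hold other adherent cells, and the 0 μg/ml samples are cells after plating and not cells in the fish.

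LECT2, leukocyte cell-derived chemotaxin 2, is a secreted protein made mainly by the liver and first described as a factor that attracts neutrophils. In mice it has been described to bind the C-type lectin CD209a on macrophages and to change their activity. The head kidney is a blood-forming and immune organ of bony fish and a common source of their macrophages.

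Each array carried 49077 probes and 1319 control spots and was hybridized with Cy3-labeled RNA of 1 sample. A level below is the log2 of the background-subtracted spot intensity minus the 75th percentile of its array, so that 0 is the brightness that 3 in 4 probes of an array do not reach. A probe is called detected on an array where the extraction software marked it as well above background. The files give probe numbers without gene names or sequences. The labelled cell type could therefore not be checked against macrophage markers, no gene can be named, and the results are for probes. A difference in a probe can come from more RNA per cell or from more cells of a type, and these cannot be told apart in such samples.

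The 6 arrays were not equally alike. Over the 16589 probes detected on all 6, replicates 1 and 3 at 0 μg/ml had a correlation of 0.993 across probes and a median difference of 0.131 on the log2 scale, which was 0.587 of the error that the extraction software gives for the spots. They thus differed by less than that error, whereas replicate 2 differed from them by 2.05 and 2.13 times the error. At 5 μg/ml the 3 pairs differed by 0.954 to 1.52 times the error. Replicate 1 without LECT2 and replicate 1 at 0.5 μg/ml, a pair from different doses, were also within it, at 0.672. The pair from different doses shares its replicate number and could share its experiment. It was also further apart, with 1.23% of the probes over 2-fold apart against 0.543% for replicates 1 and 3 at 0 μg/ml. It therefore cannot show how close samples of different fish come. Whether replicates 1 and 3 at 0 μg/ml are 1 sample was not settled by these values. The submitters call the replicates independent, so both arrays were kept, and results with these replicates counted as 1 sample stand beside the main ones. Among the 6 arrays, replicate 2 at 0 μg/ml was the least like the rest, although not within the whole study. It was close to replicate 2 at 0.5 μg/ml, an array of the same scan, with a correlation of 0.986, a difference of 0.76 times the error and 2.01% of the probes over 2-fold apart. Over the tested probes its correlations with the other 5 arrays compared were 0.903 to 0.939, while those among these 5 were at least 0.939. It was read in a second scan together with replicate 3 at 5 μg/ml, and these 2 arrays had local backgrounds of 60 and 57 intensity units, against 32 to 44 on the other 4. Replicate 3 at 5 μg/ml was also the only one of the 6 on another slide.

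A probe entered the comparison if it was detected on all 3 arrays of at least 1 of the doses, which 19914 probes (40.6% of the array) did. Detection on all 3 arrays was found for 17474 probes at 0 μg/ml and for 19029 at 5 μg/ml, and 20148 probes (41.1%) were detected on none of the 6 arrays. In limma, which fits a linear model to each probe and moderates its variance with that of the other probes, 215 of the 19914 probes changed at an adjusted p under 0.05, or 1.08%. Of these, 196 rose (0.984% of the tested probes) and 19 fell (0.0954%). Rises were 91.2% of the changes, with an exact binomial interval of 86.5% to 94.6% that takes probes as independent, which they are not. Of the rises, 91 were tested only through detection at 5 μg/ml, and all but 6 of the falls only through detection at 0 μg/ml. Entry through 1 dose favors probes that are brighter there, so the share rests in part on that choice. Among the probes detected on all 6 arrays, 105 rose and 6 fell. A fit of these probes alone called 98 higher and 4 lower, and its share of 96.1% was no lower than the 91.2%. Before adjustment, 3064 probes had a p under 0.05. For 212 of the 215 probes, no array of one dose overlapped with an array of the other. Over all 19762 tested probes with a value on each of the 6 arrays, the 5 μg/ml arrays lay above all 0 μg/ml arrays for 3325 (16.8%) and below them for 2002 (10.1%). With replicates 1 and 3 at 0 μg/ml counted as 1 sample, 56 probes changed, 55 of them higher, and all 56 were among the 215 in the same direction.

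The number of changed probes depended on single arrays. Leaving out replicate 1, 2 or 3 at 0 μg/ml left 60, 105 and 67 changed probes, and 58, 96 and 66 of these belonged to the 215 with the same direction. Leaving out replicate 1, 2 or 3 at 5 μg/ml left 27, 43 and 42, with 27, 42 and 37 from the 215. Leaving out replicate 2 at 0.5 μg/ml, which enters only through the spread, gave 393. Rises outnumbered falls in each of these fits, with 43 rises and no fall without replicate 2 at 5 μg/ml. Among arrays of the first scan alone, 2 per dose, 258 probes changed, 202 higher and 56 lower, and 133 of them were among the 215. Of the 196 rises, all were positive between the means of the first scan, and all 195 with values in the second scan were positive there. Of the 19 falls, all were negative in the first scan and 18 of 18 in the second. These signs come from the arrays that gave the calls. Over all 19914 tested probes, 16528 kept their sign in the first scan, and 15801 of 19787 with values did so in the second.

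Most probes differed little. The median change over the tested probes was 0.06 on the log2 scale, with quartiles of −0.26 and 0.38. The median level of the tested probes on the 0 μg/ml arrays was 0.622, 0.457 and 0.629, and on the 5 μg/ml arrays 0.624, 0.623 and 0.602. Replicate 2 at 0 μg/ml was the low one of these, and the other 5 lay within a narrow band. The difference of the dose means was 0.048 and the exact permutation test over the 6 arrays gave p = 0.8 (two-sided, where 0.1 is the smallest p that 3 against 3 allows).

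A difference of more than 2-fold was more common than a call. Of the tested probes, 1100 (5.52%) were more than 2-fold brighter at 5 μg/ml, and the 196 called rises were all among them. More than 2-fold dimmer were 540 (2.71%), with all 19 called falls among them. The smallest called rise was 1.13 and the smallest called fall −1.14 on the log2 scale, so at this spread nothing under 2-fold was called. Among the probes detected on all 6 arrays, 584 were more than 2-fold brighter, of which 105 were called. The 479 that were not called had a median change of 1.22, against 1.78 for the 105. Their median standard error was 0.418 against 0.275, and their median SD at 0 μg/ml was 0.561 against 0.251. The dose groups did not overlap for 420 of these 479, beside 4119 of all 16589 probes detected on all 6 arrays. A choice by a difference of more than 2-fold by itself favors groups that do not overlap. Between the 2 untreated arrays of the first scan alone, the median SD was 0.122 for the uncalled and 0.089 for the called probes, so most of the wider spread of the uncalled probes at 0 μg/ml lay between replicate 2 and the other 2 arrays.

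Detection at rest divided the 196 rises into 3 groups. Of these probes, 105 were detected on all 3 untreated arrays, 37 on 1 or 2 of them and 54 on none. The 105 had a median rise of 3.44-fold, from 2.19-fold to 60.5-fold, with 31 above 4-fold and 6 above 8-fold. The 37 had a median rise of 5.19-fold, from 2.31-fold to 19.0-fold, with 24 above 4-fold and 7 above 8-fold. Their untreated means include arrays on which the probe was not detected, and no bound was computed for them. Their sizes are therefore less certain than those of the 105 and are not set against them. Probes of the 37 and the 54 were tested only because they were detected on all 3 arrays at 5 μg/ml, which by itself picks probes that are brighter there, so the sizes of the 3 groups are given as descriptions.

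For the 54 probes not detected at rest, a change is only bounded. For the bound, a probe below the lowest level that was well above background on an untreated array was put at that level, and the mean at 5 μg/ml was set against the mean of the resulting levels. These probes were at least 1.08-fold to at least 17.4-fold higher at 5 μg/ml, with a median bound of 1.91-fold. The bound was at least 2-fold for 25 probes, at least 4-fold for 13 and at least 8-fold for 4. For the other 29 probes the data place no 2-fold rise above the limit of detection, although each was called in limma.

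Detection shifted in both directions between the doses, as the grid of detection at both doses shows. On none of the untreated arrays and all 3 treated arrays, 220 probes were detected, of which 54 were called higher. The opposite pattern, all 3 untreated and none of the treated arrays, was found for 34 probes, of which 5 were called lower. Among probes detected on all 3 treated arrays, 17 of the 599 detected on 1 untreated array and 20 of the 1621 detected on 2 were called higher. Over all tested probes, 0.984% were called higher and 0.0954% lower. The 2440 probes detected on all 3 treated but not all 3 untreated arrays were tested only through their detection at 5 μg/ml. That choice favors calls in the higher direction, and none of them was called lower.

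**Figure D1:**
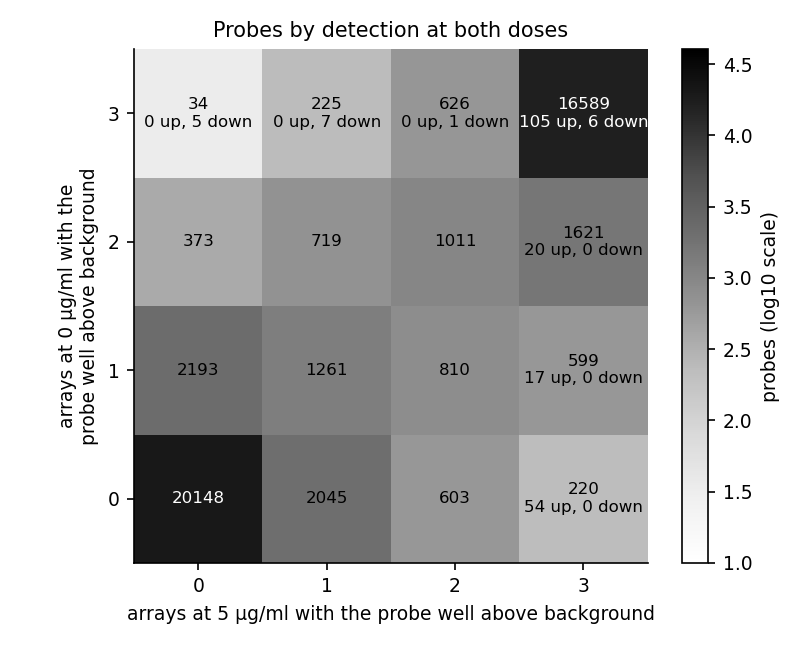
Number of probes by the count of arrays on which the probe was well above background at 5 μg/ml (horizontal, 0 to 3) and at 0 μg/ml (vertical, 0 to 3), with the shade on a log10 scale. The lower line of a cell gives the probes called higher (up) and lower (down) at 5 μg/ml by limma. The right column holds 16589, 1621, 599 and 220 probes from top to bottom and all of the rises.

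The falls were fewer. Of the 19, 6 were detected on all 6 arrays and had changes of −1.79 to −1.14, with a median of −1.48. Another 8 were detected on 1 or 2 of the treated arrays, with a median change of −1.38. The treated means of these 8 include arrays on which the probe was not detected, so this size is less certain. The remaining 5 were detected on none of the treated arrays and were at least 1.27-fold to at least 2.16-fold lower at 5 μg/ml, with a median bound of 1.66-fold. The floor of detection limits how large a fall of a dim probe can be, so the sizes of falls and rises are not set against each other except for probes detected on all 6 arrays. There, none of the 6 falls and 31 of the 105 rises were above 4-fold.

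The number of probes gained and lost rests on a strict definition. If detection on at least 2 of 3 arrays is enough and the other dose has none, 823 probes were gained and 407 lost. If detection on all 3 arrays is kept and the other dose may have up to 1, the counts were 819 and 259. More probes were gained than lost under each definition. The total number of detected probes was 24171, 20827 and 19735 on the untreated arrays and 24887, 20190 and 22360 on the treated ones, and the ranges overlapped (exact permutation test, two-sided p = 0.6). The limit of detection was not the same on all arrays. The lowest normalized level that counted as well above background was −2.21, −1.43 and −1.57 on the untreated arrays and −2.44, −1.65 and −2.10 on the treated ones. These limits overlapped (exact permutation test, two-sided p = 0.4), with a mean that was 0.326 lower on the treated arrays. Its part in the gains was not tested.

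To describe the change by resting level, the 17474 probes detected on all 3 untreated arrays were ranked by their mean level at 0 μg/ml and divided into 5 classes of 3494 or 3495 probes, numbered from the dimmest (class 1) to the brightest (class 5). Class 1 had resting levels from −1.71 to −0.47 and class 5 from 3.15 to 11.12. A probe that is low at 0 μg/ml by chance is put in a dimmer class and then appears to rise. In the other direction, detection on all 3 untreated arrays is asked of each member and none is asked at 5 μg/ml. Near the limit of detection this favors probes that are high at 0 μg/ml, and 818 of the 3495 members of class 1 were not detected on all 3 treated arrays. An excess of lower values in class 1 is thus partly built in, and its values are descriptions. The classes were also formed from the same probes by the 0.5 μg/ml arrays and by all 6 arrays compared.

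**Figure D2:**
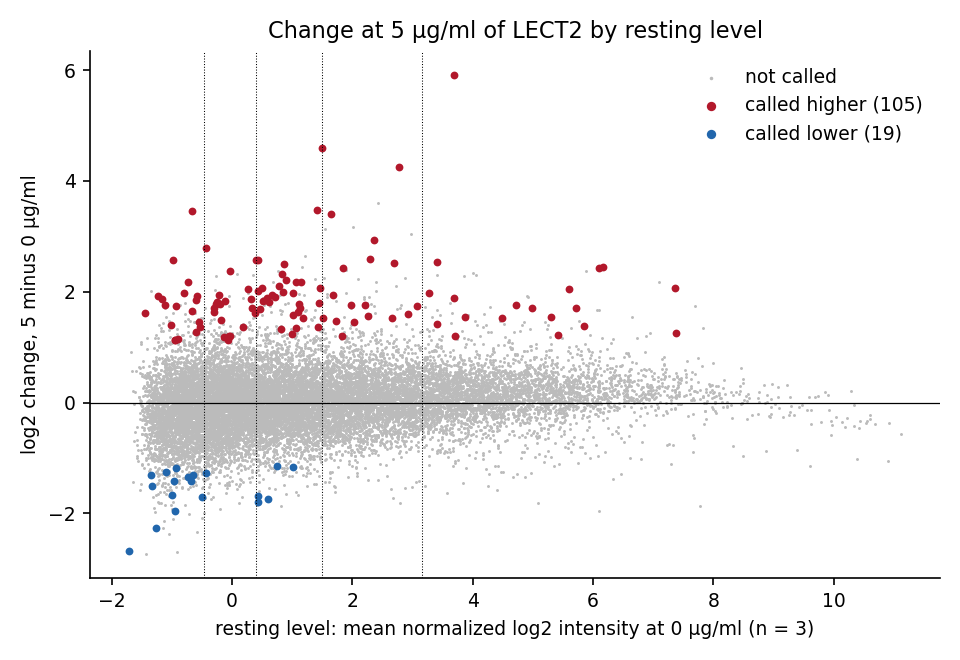
Change of each probe detected on all 3 arrays at 0 μg/ml (vertical, log2 of 5 against 0 μg/ml) against its resting level (horizontal, mean normalized log2 intensity of the 3 untreated arrays). Grey points are probes not called, red points the 105 called rises and blue points the 19 called falls in limma, and dotted lines part the 5 classes. Rises lie along the whole scale up to a resting level above 7, and no fall lies above a level of 2.

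Rises were found at every resting level. From class 1 to class 5, 19, 19, 30, 18 and 19 probes were called higher, or 0.544%, 0.544%, 0.859%, 0.515% and 0.544% of a class, beside 0.984% of all tested probes. The share over all tested probes is higher since it also counts the 91 rises of probes not detected on all 3 untreated arrays. The sizes of the called rises were also alike, with medians of 1.74, 1.70, 1.92, 1.76 and 1.70 on the log2 scale. The highest rise of a class was 3.47, 2.79, 3.48, 4.60 and 5.92. Above 4-fold were 3, 3, 12, 7 and 6 of them. Class 3, in the middle, held the most rises and the most above 4-fold, and no test between classes was made.

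No called fall lay above class 3 of the resting level, and class 1 held the most. All but the 6 falls detected on all 6 arrays were tested only through detection on the 3 untreated arrays. Near the limit of detection this picks probes that are high there, so the place of these falls on the scale is in part fixed by that choice. From class 1 to class 5, 13, 1, 5, 0 and 0 probes were called lower. These were 0.372%, 0.0286%, 0.143%, 0% and 0% of a class, beside 0.0954% of all tested probes. In the classes by the 0.5 μg/ml arrays the numbers were 14, 3, 2, 0 and 0, so no fall lay in classes 4 and 5 there either. The rises moved more with the way of ranking. By the 0.5 μg/ml arrays they were 9, 18, 33, 23 and 22, and by all 6 arrays 1, 17, 27, 32 and 28. The ranking by 6 arrays counts the risen level itself and moves such probes up.

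The calls at the bright end differed between fits. With the scan as a block, 10 falls and 102 rises were called in class 5 and 106 falls and 53 rises in class 1. Within the first scan alone, falls were 11, 8, 10, 10 and 16 from class 1 to class 5 and rises 15, 16, 28, 24 and 21. Without replicate 2 at 0 μg/ml, the rises were 7, 8, 14, 10 and 12 and the falls 2, 0, 1, 0 and 0. Bright probes that fell were therefore absent from the main calls and present in the calls of the first scan. Over all 19914 tested probes, the scan block called 582 rises and 247 falls. The first scan alone called 202 and 56, and the fit without replicate 2 at 0 μg/ml called 102 and 3.

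**Figure D3:**
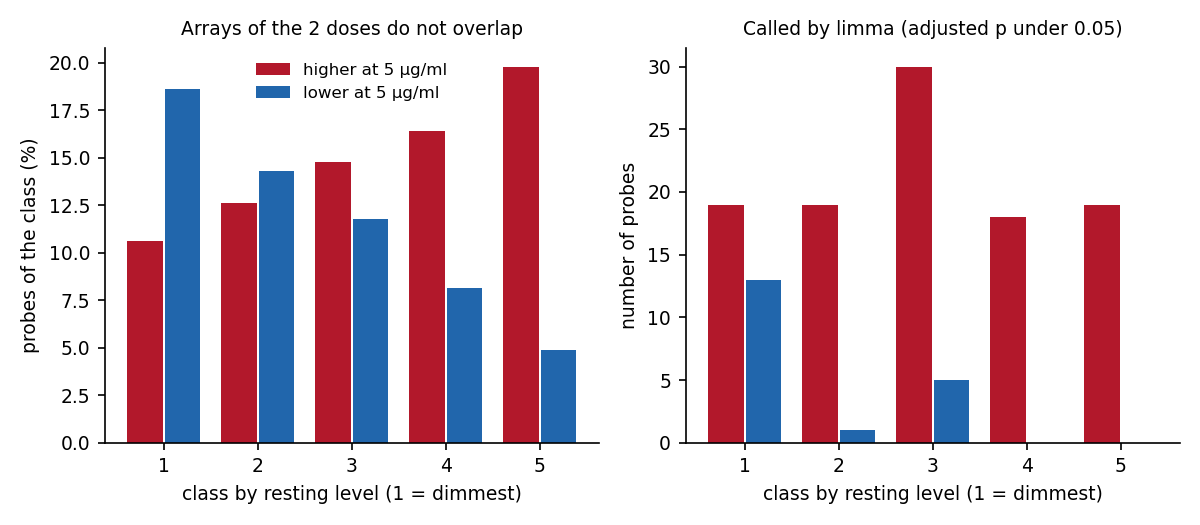
Left, percent of the probes of a class for which the 3 arrays at 5 μg/ml lay above (red) or below (blue) all 3 arrays at 0 μg/ml. Right, number of probes called higher or lower by limma; both by class of the resting level, from the dimmest (1) to the brightest (5). Non-overlapping rises go from 10.6% to 19.8% and falls from 18.6% to 4.89%, while the called rises are 19, 19, 30, 18 and 19.

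Without regard to calls, the balance of the differences turned with the resting level. In class 1 the treated arrays lay above all untreated ones for 10.6% of the probes and below them for 18.6%. In class 5 the shares were 19.8% above and 4.89% below, beside 16.8% and 10.1% over all tested probes. The tested probes also include the 2440 that entered only through detection at 5 μg/ml and lie in no class. Their entry favors higher values, so the classes are not directly set against these 2 shares. The classes in between were in order, with 12.6%, 14.8% and 16.4% above and 14.3%, 11.8% and 8.16% below. Differences of more than 2-fold showed the same for dimmer probes, with 241, 129, 94, 39 and 37 of them, whereas 97, 103, 148, 127 and 109 were brighter. These shares and counts hold for the scaling used here and were not recomputed under others. Nor were they recomputed without replicate 2 at 0 μg/ml. That array had the highest median of the arrays compared in class 1 and the lowest in class 5. The typical size of a difference in either direction shrank, from a median of 0.374 in class 1 to 0.254 in class 5 on the log2 scale.

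The median level of a class on each array shows where this turn lay. In class 1 it was −0.90, −0.84 and −0.96 on the untreated arrays and −1.02, −0.99 and −1.03 on the treated ones. All treated arrays were below all untreated ones, with a difference of the means of −0.111 (pooled SD 0.046, n = 3 per dose), in a class whose members were chosen by detection at 0 μg/ml. For this reason no test is given for class 1. On the authors' own table, which scales the arrays differently, the sign was turned, with a difference of 0.109. In class 5 it was 4.60, 4.11 and 4.67 on the untreated arrays and 4.66, 4.66 and 4.56 on the treated ones. Here the groups overlapped, and replicate 2 at 0 μg/ml was lower than the other 5 arrays by more than those differed among themselves. The difference of the means was 0.166 (pooled SD 0.221) with p = 0.7 in the exact permutation test. For classes 2, 3 and 4 the differences were −0.031, 0.032 and 0.088 (exact permutation p = 0.5, 1.0 and 0.9). A threshold of 0.05 cannot be reached in this design, so no adjustment over these tests was made.

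**Figure D4:**
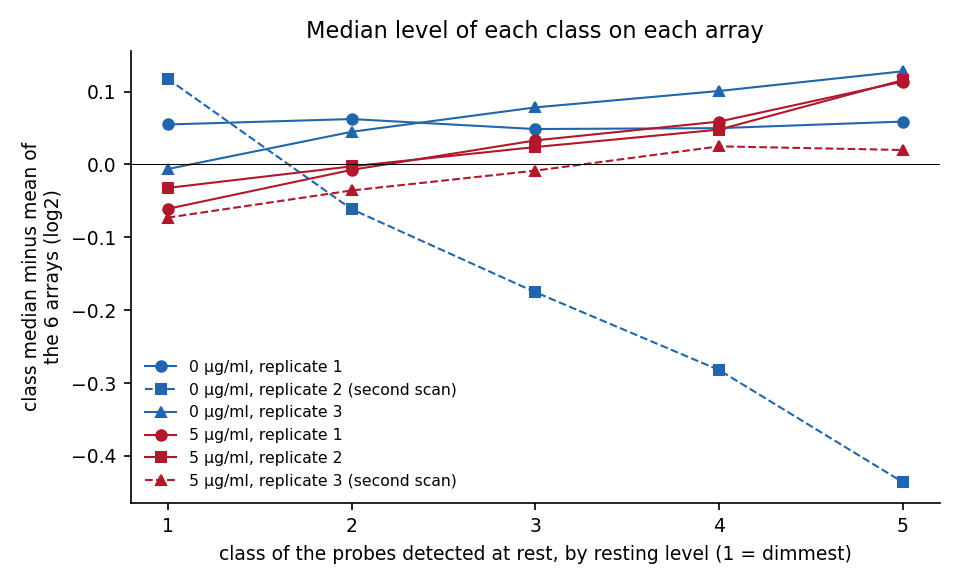
Median normalized log2 intensity of the probes of a resting-level class on each array, minus the mean of the 6 arrays (vertical), by class (horizontal, 1 is the dimmest). Blue lines are the arrays at 0 μg/ml and red lines those at 5 μg/ml, with dashed lines for the second scan. Replicate 2 at 0 μg/ml goes from the highest array in class 1 to the lowest in class 5, where its median of 4.11 lies below the 4.56 to 4.67 of the other 5.

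Within the scans the turn was not the same. Between the means of the first scan, with 2 arrays per dose, the class medians differed by −0.080, −0.070, −0.047, −0.060 and 0.007 from class 1 to class 5. Between the single arrays of the second scan they differed by −0.232, 0.014, 0.173, 0.324 and 0.430. Class 1 was dimmer on the treated arrays in both scans. Classes 3 and 4 were brighter only in the second scan, where the untreated array was replicate 2, and class 5 was brighter there by far more than in the first. The distance between the medians of classes 5 and 1 was 5.51, 4.95 and 5.64 on the untreated arrays and 5.68, 5.65 and 5.60 on the treated ones. Replicate 2 at 0 μg/ml spanned the least, and the doses overlapped (exact permutation test, two-sided p = 0.2).

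The spread between replicates followed the resting level in opposite ways at the 2 doses. At 5 μg/ml the median SD of a probe fell in order from 0.342 in class 1 to 0.202 in class 5 (n = 3). At 0 μg/ml it went up in order from 0.287 to 0.383. Between the 2 untreated arrays of the first scan alone it went down, from 0.160 to 0.069, and between the treated ones from 0.204 to 0.117. The high spread of bright probes at rest thus lay between replicate 2 and the other untreated arrays.

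Detection at 5 μg/ml was kept for nearly all probes above the dimmest class. Of class 1, 76.6% were still detected on all 3 treated arrays, of class 2 98.2% and of class 3 99.9%. Every probe of classes 4 and 5 was. The 34 probes that no treated array detected all lay in class 1, near the limit of detection.

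The rises carried a small part of the signal. As a description of probes chosen by this comparison, the 196 held 0.48%, 0.456% and 0.478% of the summed intensity of the untreated arrays and 2.15%, 1.75% and 2.0% of that of the treated ones. By their mean level, 2 of the 196 were among the brightest 491 probes, 1% of the array, at 0 μg/ml and 12 were at 5 μg/ml. Among the brightest 10% there were 24 and 61. The brightest 1% of each array held 52.1%, 51.5% and 52.6% of its intensity at 0 μg/ml and 51.5%, 51.8% and 48.3% at 5 μg/ml, with overlapping ranges (exact permutation test, two-sided p = 0.2).

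Of the called probes that were detected on all 6 arrays and did not overlap between the doses, 104 rose and 6 fell, and the 2 highest rises and the 2 deepest falls among them are given by array. Probe A_1000000_P0000042 had levels of 4.47, 2.53 and 4.04 at 0 μg/ml and 10.05, 9.24 and 9.51 at 5 μg/ml. Replicate 2 was the low untreated array, and even the highest untreated level was far below the lowest treated one. The probe rose 60.5-fold (log2 change 5.92, standard error 0.69, limma adjusted p = 0.00495) and went from place 2694 to place 25 by brightness. At 0.5 μg/ml its levels were 6.62, 4.17 and 6.81, between those of the other doses except that replicate 2 lay within the untreated range. That array was of the second scan, where the untreated array, replicate 2, had 2.53. On the authors' own table, which caps the highest intensities, its log2 change was 4.80.

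Probe A_1000000_P0025598 had levels of 2.10, 0.55 and 1.85 at 0 μg/ml and 6.39, 5.65 and 6.27 at 5 μg/ml. The order of the untreated arrays was the same as for the first probe, with replicate 2 lowest. It rose 24.3-fold (log2 change 4.60, standard error 0.45, limma adjusted p = 0.00177) from place 6972 to place 649. Its 0.5 μg/ml levels were 3.08, 1.86 and 2.83, of which replicate 2 again lay within the untreated range. The untreated array of the same scan as that replicate had 0.55. Both rises were called under all 22 alternatives, with limma adjusted p of at most 0.0419 and 0.0212. The alternatives reuse the arrays by which these probes were picked as the highest rises, so this is a description.

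Probe A_1000000_P0034565 had levels of 0.76, −0.25 and 0.81 at 0 μg/ml and −1.49, −0.93 and −1.64 at 5 μg/ml. Its groups did not overlap, although the 2 arrays numbered 2 differed by less than 1. It was 3.46-fold lower (log2 change −1.79, standard error 0.36, limma adjusted p = 0.0472). Probe A_1000000_P0020093 had levels of 0.48, 0.65 and 0.65 at 0 μg/ml and −1.66, −1.39 and −0.37 at 5 μg/ml. Its untreated arrays were close together and the treated ones apart, with replicate 3 the highest of them. It was 3.33-fold lower (log2 change −1.73, standard error 0.34, limma adjusted p = 0.0408). The 2 named falls were smaller changes than the 2 named rises and were called under fewer alternatives. Detection on all 3 treated arrays, asked of each named probe, limits the size of a fall and not that of a rise. These falls were not called under 12 and 11 of 22 alternatives and stayed negative under each. Their limma adjusted p went from 0.00647 to 0.215 and from 0.0154 to 0.208.

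**Figure D5:**
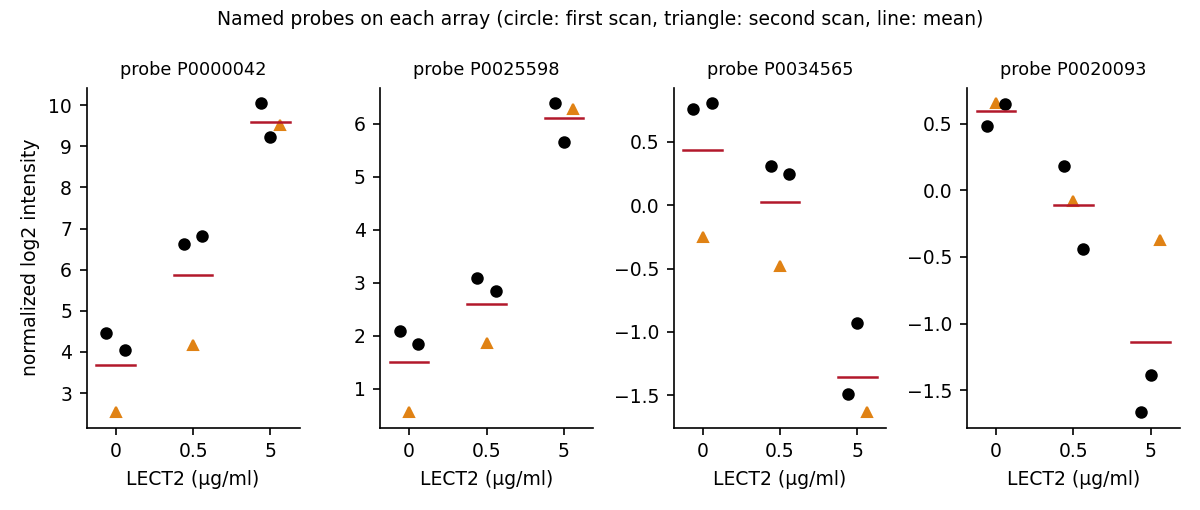
Normalized log2 intensity (vertical, a scale of its own in each panel) of the 4 probes by LECT2 dose in μg/ml (horizontal), with 1 point per array. Circles are arrays of the first scan, triangles those of the second scan and red lines the means of 3 arrays. In each panel the 5 μg/ml arrays do not overlap with the 0 μg/ml arrays.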

How the data were processed

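Doses and replicate numbers were taken from titles, descriptions and treatments in the labels. Another label field gives 0 μg/ml for every sample, and the extraction text describes plant material; neither was used. The authors deposited per array the spot intensity of Agilent Feature Extraction 10.7.3.1 (submitters' processing notes), which is background-subtracted, has a floor for low values and is not normalized between arrays. On the 6 arrays 25.4% to 35.7% of probes lay at that floor, and no spot was saturated. For replicate 3 at 5 μg/ml the values hold only 3 significant digits. A linear table of intensity values, also deposited by the authors, has in each column the processed intensity times 1 constant (0.754 to 1.36), with a median of 37 and a ceiling. It was used as an alternative only.

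Control spots and outlier spots (9 to 290 on each of the 6 arrays) were left out. Levels were log2 intensity minus the array's 75th percentile (165.6 to 278 intensity units on the 6 arrays). The test was limma 3.58.1, run in R 4.3.3 (two-sided, all 9 arrays in 1 fit without blocks, Benjamini-Hochberg over the 19914 tested probes). Class medians and array totals were compared with exact permutation tests over arrays. The code was tested on simulated data. The replicate number of 0 and 5 μg/ml was not taken as a pair. Named are the 2 highest rises and 2 deepest falls among called probes detected on all 6 arrays without overlap of the doses. The probes, classes and tests were chosen with earlier results of these data known. Gene lists and cell type markers were not run, since the files do not pair probes with genes. The number of arrays, and the background for dim probes, limit the precision. Alternatives were other scalings, values, filters, classes, blocks, a variance trend and fits on fewer arrays.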

Additional observations from a re-analysis of the deposited data

How the results depend on the processing

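The number of probes changed at 5 μg/ml was 215, with 91.2% of them higher. It stayed within 1.5 times under quantile normalization (95.3% higher), a percentile taken over the probes detected on all 9 arrays (80.9%), the authors' table (98.5%), normexp with an offset of 50 on median signals (97.0%), a variance trend (96.5%) and the first scan alone (78.3%). Splits by direction were 141 and 7, 191 and 45, 192 and 3, 260 and 8, 193 and 7, and 202 and 56. The probes themselves changed more than this number, since 138, 179, 175, 156, 179 and 133 of these calls were among the 215 in the same direction. It was 21 (95.2%) with no filter, where 49077 probes are tested, 102 (96.1%) on probes detected on all 6 arrays, 413 (85.7%) in a fit of the 6 arrays only, 829 (70.2%) with the scan as a block and 56 (98.2%) with replicates 1 and 3 at 0 μg/ml averaged. Leaving out 1 array gave 27 to 393 probes and 84.5% to 100%, and the 2 arrays then left at a dose were assumed to vary like the other groups. The replicate number as a block gave 1116 probes, 836 higher and 280 lower (74.9%). Between 0 and 5 μg/ml, the deviations of replicates 1, 2 and 3 from their dose means had correlations of 0.407, 0.149 and −0.11, and were not all above 0.1. The numbers were therefore not used as pairs, and whether they mark shared experiments is not settled by the sources or by these values. Replicate 1 was read in the same scan at both doses, whereas replicates 2 and 3 were read in different scans. A low correlation for replicates 2 and 3 therefore cannot tell a missing pairing from a difference of the scans. Among the untreated arrays, each 0.5 μg/ml array had its highest correlation with the one of its own number (0.989, 0.986 and 0.985). For replicate 2 these arrays also shared the second scan. All 3 arrays at 5 μg/ml had theirs with untreated replicate 3 (0.971, 0.968 and 0.951). A pairing by number was not tested with these values.

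The difference between the dose means of the array medians of all tested probes, 0.048, was −0.087 with the percentile over probes detected on all 9 arrays, 0.268 on the authors' table and −0.216 with no filter. For class 1 (dimmest), −0.111, these scalings gave −0.246 and 0.109 and quantile normalization −0.022, and ranking by the 0.5 μg/ml or the 6 arrays gave −0.175 and −0.229. For class 2 the scalings gave −0.165 and 0.190 and for class 3 −0.103 and 0.251, and for class 4 −0.047 and 0.307. Quantile normalization gave −0.029 for class 4 and −0.006 for class 5, which was 0.166 in the main values, −0.010 without replicate 2 at 0 μg/ml and 0.386 on the authors' table. The sign of a class median therefore depends on the scaling. The other percentile and the authors' table shift all levels of an array by 1 amount, apart from rounding and the ceiling. They therefore cannot change the distance between classes 1 and 5. Quantile normalization and normexp can. Quantile normalization gave −0.022 for class 1 and −0.006 for class 5, and normexp gave −0.130 and 0.249.

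By ranking on the 0.5 μg/ml arrays, class 1 had 9 rises and classes 2 and 3 had 3 and 2 falls. By the 6 arrays, 1 and 32 rises lay in classes 1 and 4, and 4 and 1 falls in classes 2 and 3. From class 1 up, the scan as a block gave 53, 58, 89, 81 and 102 rises and 106, 63, 49, 19 and 10 falls. Leaving out replicate 2 at 0 μg/ml gave 7, 8, 14, 10 and 12 rises and 2, 0, 1, 0 and 0 falls. The first scan alone gave 8, 10, 10 and 16 falls in classes 2 to 5. Gained probes, 220, were 823 and 819, and lost ones, 34, were 407 and 259, with looser definitions of detection. The calls by class under the scan block, without replicate 2 and in the first scan, and the averaged pair, were added after seeing the data. The cause of these moves was not tested.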
